A study of Mus musculus with 6 samples.

Results

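The apoptosis and death receptor genes examined here were 60 of the 14774 genes in the count table of MA-10 and STARKO1 cells. They were taken from the 11733 protein-coding genes by symbol: the BCL2 family, the caspases, the inhibitor of apoptosis (IAP) proteins, the apoptosome and mitochondrial death factors, the tumor necrosis factor (TNF) receptors and ligands, and the adaptors and kinases that join them. The selection rule uses symbols and no measured value, although it was drawn up with earlier results of these data known. In the mouse annotation, 98 protein-coding genes carry such symbols, and 38 of these, among them Bcl2, Fas, Pmaip1, Ripk3, Tnfrsf21 and Tnfsf10, were not analysed here. MA-10 is a mouse tumor Leydig cell line that makes progesterone, and it served as the wild type (3 libraries). STARKO1 (3 libraries) is a line of the same cells in which CRISPR/Cas9 was aimed at the second exon of Star, the gene of the steroidogenic acute regulatory protein that moves cholesterol into mitochondria. Both lines were untreated. STARKO1 grew from a single sorted cell, so the loss of STAR and the choice of clone cannot be told apart in these data.

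Apoptosis runs along 2 routes. In the mitochondrial route, BH3-only proteins release the effectors BAX and BAK1 from the anti-apoptotic BCL2 proteins, the outer mitochondrial membrane opens, and cytochrome c assembles APAF1 and caspase-9 into the apoptosome. In the death receptor route, TNF family ligands bring receptors together, which recruit FADD, TRADD, RIPK1 and caspase-8. Both routes end in the executioner caspases, which IAP proteins restrain. In Leydig cells, mitochondria are also where steroid synthesis begins, with the import of cholesterol that STAR carries out.

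Promoter sequence is shown for the members that differed between the lines with the largest folds, because these are the ones the results turn on. The bases come from RefSeq on build GRCm38.p6 and lie upstream of both the RefSeq start and the gene as GENCODE draws it, 5′ to 3′ on the strand of the gene, with CpG dinucleotides in capitals. Casp1 lies on the plus strand (chr9:5298267-5298516), Birc3 on the minus strand (chr9:7873187-7873420), Aifm3 on the plus strand (chr16:17489427-17489610) and Eda2r on the minus strand (chrX:97377217-97377459).
Casp1: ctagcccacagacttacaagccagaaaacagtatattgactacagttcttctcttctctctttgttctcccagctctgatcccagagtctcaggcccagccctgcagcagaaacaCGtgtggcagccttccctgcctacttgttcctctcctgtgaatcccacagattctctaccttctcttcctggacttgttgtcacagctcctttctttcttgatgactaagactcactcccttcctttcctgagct
Birc3: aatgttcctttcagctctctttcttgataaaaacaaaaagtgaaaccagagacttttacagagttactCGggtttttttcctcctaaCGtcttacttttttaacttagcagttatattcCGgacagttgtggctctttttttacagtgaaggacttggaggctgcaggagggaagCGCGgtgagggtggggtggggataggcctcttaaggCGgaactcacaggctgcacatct
Aifm3: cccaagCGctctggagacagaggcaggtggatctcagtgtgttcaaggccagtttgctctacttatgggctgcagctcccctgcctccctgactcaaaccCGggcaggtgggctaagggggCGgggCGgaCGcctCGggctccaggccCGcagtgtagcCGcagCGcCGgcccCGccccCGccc
Eda2r: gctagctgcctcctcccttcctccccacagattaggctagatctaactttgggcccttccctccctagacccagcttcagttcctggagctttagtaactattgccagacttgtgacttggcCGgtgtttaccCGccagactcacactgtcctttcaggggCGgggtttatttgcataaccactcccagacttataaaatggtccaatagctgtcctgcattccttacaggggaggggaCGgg
The Casp1 stretch held 1 CpG in 250 bases, that of Eda2r 4 in 243, that of Birc3 6 in 234 and that of Aifm3 12 in 184. Its GC content was 49.2% for Casp1, 53.1% for Eda2r, 44.9% for Birc3 and 69.6% for Aifm3. Over the 250 bases before the RefSeq start, the median was 6 CpG for all 27025 symbols with a promoter and 13 for the 52 members matched. The consensus of NF-kB, a factor that answers TNF receptors, was found on either strand in 6 of these 52 promoters (11.5%), against 3.75% of all. The half-site of p53 was found in 3 (5.77%), against 7.18% of all. The members' promoters were also richer in GC, with a median of 59.4% against 52% for all, whose part in these shares was not tested. The promoters with the NF-kB consensus were those of Aifm1, Bbc3, Birc5, Bnip1, Tnfrsf8 and Traf3, and those with the p53 half-site were Bax, Birc5 and Tnfsfm13. Tnfrsf8 was not tested between the lines, and none of the other genes was called by edgeR, while DESeq2 called Bbc3, Birc5 and Tnfsfm13. Neither motif was in the promoters of Casp1, Birc3, Aifm3 and Eda2r. Both motifs were searched as 10-base patterns with ambiguous letters, so a match is a match of letters and not a measured binding site.

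The libraries held between 14114351 and 19530062 counts each. Levels are given in CPM, the count relative to a library size scaled by the TMM method. The targeted gene, Star, averaged 77.2 ± 27.8 CPM over the MA-10 libraries and 2.27 ± 0.386 CPM over the STARKO1 libraries (SD, n = 3 each). Star fell by 5.09 on the log2 scale (SE 0.331, adjusted p = 0.00121, edgeR's quasi-likelihood test). All 13 Leydig cell markers examined were present, with a summed level of 2320 to 3000 CPM in the MA-10 libraries and 2010 to 2100 CPM in the STARKO1 libraries. Besides Star, edgeR called 1 of them, Hsd3b1, which fell by 2.52 on the log2 scale (SE 0.219, adjusted p = 0.00268). DESeq2 called 6 of the 13, Star, Hsd3b1, Cyp11a1, Hsd3b6, Cyp17a1 and Fdxr (against 28.4% of all genes). All STARKO1 libraries lay above the MA-10 libraries for 3 markers (23.1%, against 21.5% of all genes) and below them for 5 (38.5%, against 21%). Of the 8 macrophage markers 3 had a row, with a summed level of 5.38 to 10.1 CPM in MA-10 and 6.66 to 8.69 CPM in STARKO1, and of 5 lymphocyte markers none had one. Of the Sertoli (7), germ cell (6), endothelial (4) and peritubular or fibroblast (5) markers 2 each had a row, and summed to 333 to 524, 107 to 212, 26.4 to 41.5 and 3.12 to 7.66 CPM in MA-10 libraries and to 565 to 589, 233 to 237, 118 to 124 and 0.337 to 0.43 CPM in STARKO1 libraries. Of those 8 genes, Cdh5 was called higher and Pdgfra lower, while the endothelial markers Kdr and Tek had no row. Most of the Sertoli sum was Rhox5, at 314 to 504 CPM in MA-10 and 547 to 568 CPM in STARKO1 libraries. Most of the germ cell sum was Kit, at 105 to 209 and 230 to 234 CPM, and edgeR called neither gene. Sox9, Amh, Wt1, Dazl and Sycp3 had no row. The MA-10 libraries were less alike than the STARKO1 libraries (Pearson's r of log2 CPM across 11939 genes 0.897 to 0.979, against 0.993 to 0.994). MA-10 replicate 1 had r of 0.897 and 0.931 with MA-10 replicates 2 and 3, which had 0.979 with each other. With the STARKO1 libraries its r was higher, between 0.956 and 0.959. The TMM factors were 1.155, 0.6544 and 0.8053 for MA-10 replicates 1, 2 and 3 and 1.173 to 1.191 for the STARKO1 libraries. The noncoding 7SL RNA took 1.81%, 14.4% and 6.63% of the counts of MA-10 replicates 1, 2 and 3 and 1.82% to 2.37% in STARKO1 cells. The part of these differences in the results for single genes was not tested. The study states as a general rule that its data come from independent experiments, but the sources used here do not say of these libraries whether they were separate cultures, so the p-values measure the spread between these libraries, which may be technical. Nor can fewer cells that express a gene be told apart from less RNA of it per cell.

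Of the 56 members with enough counts to be tested, 7 were called, meaning that they differed between the cell lines with a Benjamini-Hochberg adjusted p below 0.05 over 11939 genes in edgeR's quasi-likelihood test. Casp1 and Aifm3 were among the 4 that were higher in STARKO1 cells, and Birc3, Eda2r and Tnfrsf10b were lower. The 4 higher members were 7.14% of those tested, against 4.3% of all genes, and the 3 lower members were 5.36%, against 4.74% of all genes. These shares were near the background, and the median log2 fold change of the members, -0.04, was near that of all genes, -0.05. All 3 STARKO1 libraries lay above all 3 MA-10 libraries for 12 members (21.4%, against 21.5% of all genes) and below them for 14 (25%, against 21% of all genes), and the lines overlapped for 30. At an unadjusted p under 0.05, 7 members were higher (12.5%, against 15% of all genes) and 10 lower (17.9%, against 22.7% of all genes). DESeq2 called 5 higher (8.93%, against 11% of all genes) and 9 lower (16.1%, against 17.4% of all genes). The plot of fold changes by role shows the called members in 4 of the 10 role groups.

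**Figure D1:**
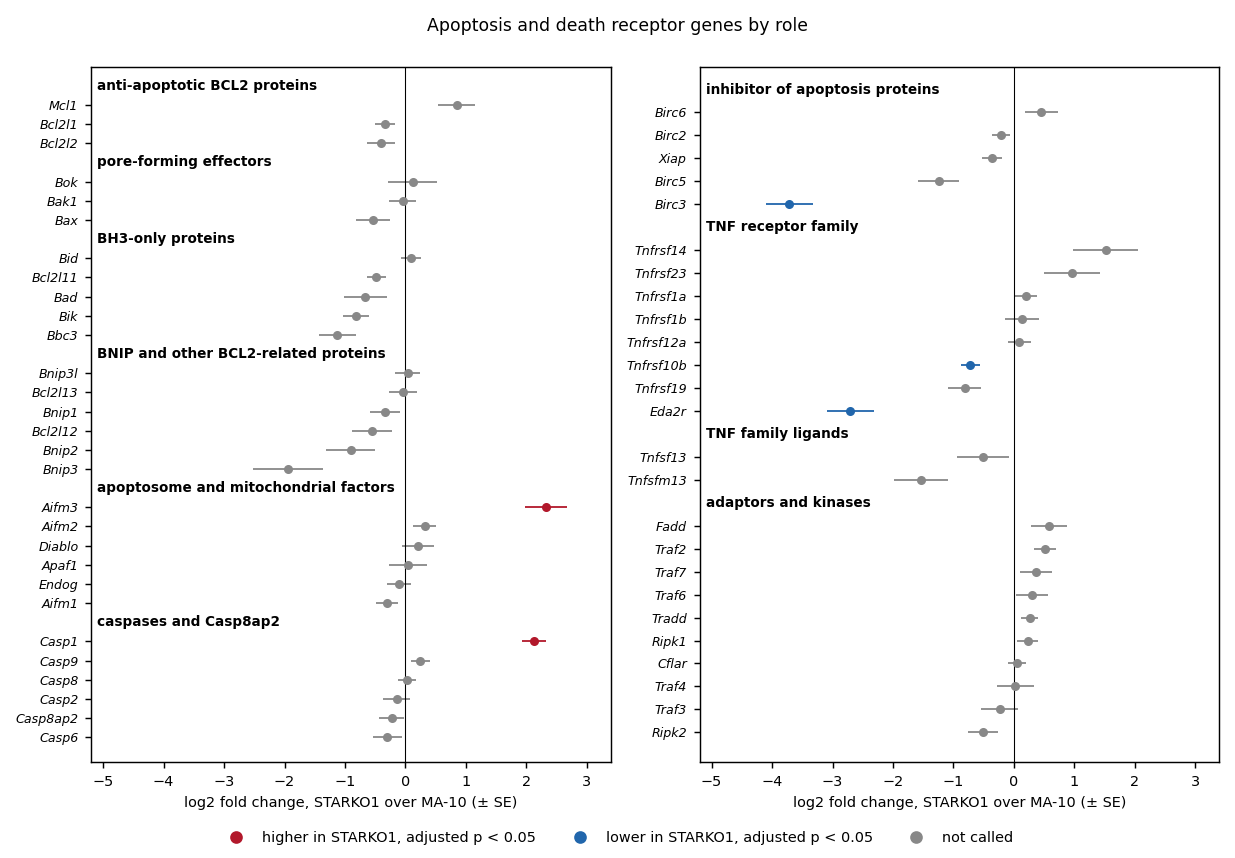
Log2 fold change of 54 tested apoptosis and death receptor genes, STARKO1 over MA-10, on the horizontal axis, with the genes sorted by role on the vertical axis. Points are estimates from 3 libraries a line and bars are ± 1 SE; Casp1 and Aifm3 (red) lie at 2.13 and 2.33, Birc3, Eda2r and Tnfrsf10b (blue) between -3.72 and -0.72, and the other genes (grey) were not called.

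Casp1, the inflammatory caspase that activates interleukin-1 beta and gasdermin D, was higher in STARKO1 cells. Casp1 (chr9:5298517-5307265, GRCm38) had 1.78, 2.17 and 1.85 CPM in MA-10 replicates 1 to 3, from 21 to 31 counts, and 8.43, 8.49 and 8.48 CPM in the STARKO1 replicates, from 144 to 196 counts. The lines were far apart, with means of 1.93 ± 0.209 and 8.47 ± 0.0317 CPM (SD, n = 3 each). An SD from 3 libraries with so few counts is itself uncertain. The log2 fold change of Casp1 was 2.13 (SE 0.197, adjusted p = 0.00339, edgeR's quasi-likelihood test), a 4.39-fold difference. It kept an adjusted p under 0.05 in all 6 fits that left out 1 library, where the estimate lay between 2.11 and 2.22, and in all 8 other alternatives.

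The initiator caspases and Casp6 were not called. Casp9, the caspase of the apoptosome, had 24.2, 19.0 and 19.4 CPM in MA-10 cells and 24.6, 24.8 and 24.9 CPM in STARKO1 cells (log2 fold change 0.25, SE 0.161, adjusted p = 0.283, edgeR's quasi-likelihood test). Casp8, the initiator caspase of the death receptors, had 51.3 to 52.6 CPM in the MA-10 libraries and 46.8 to 58.2 CPM in the STARKO1 libraries, with a log2 fold change of 0.03 (SE 0.150). Casp2, which answers DNA damage, had a log2 fold change of -0.15 (SE 0.226), and Casp6, an executioner that also cleaves lamins, had -0.30 (SE 0.237). For Casp8ap2, a nuclear partner of caspase-8 whose symbol begins like those of the caspases, it was -0.23 (SE 0.211). The values of Casp8, Casp2, Casp6 and Casp8ap2 overlapped between the lines.

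**Figure D2:**
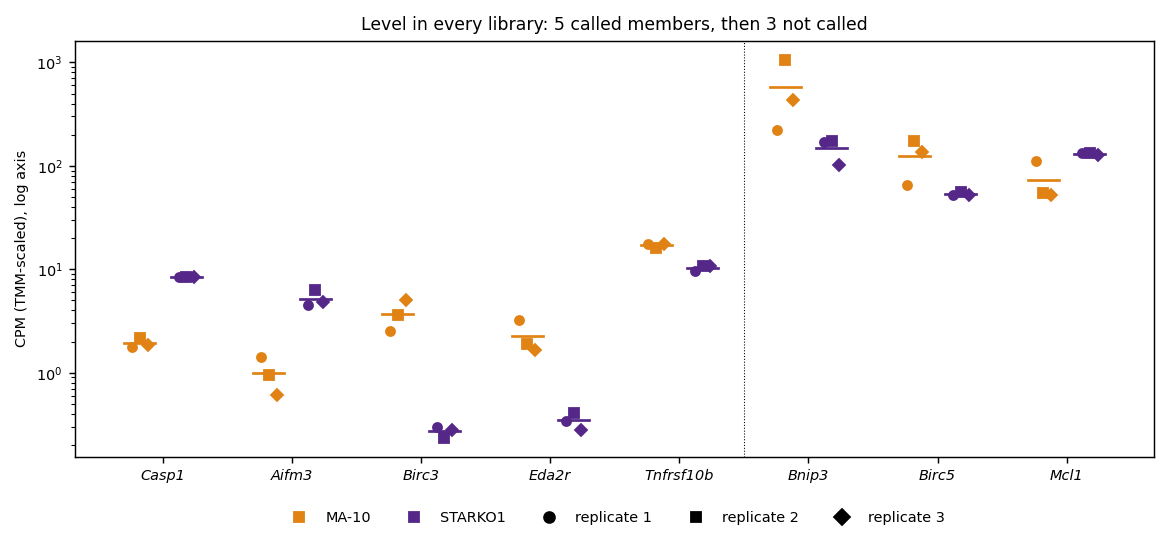
Level in CPM (log axis) of each of the 6 libraries for 5 called members and, right of the dotted line, Bnip3, Birc5 and Mcl1, which were not called; orange is MA-10, purple is STARKO1, symbols mark the replicate number and lines the mean of 3 libraries. Casp1 sits between 1.78 and 2.17 CPM in MA-10 cells and between 8.43 and 8.49 CPM in STARKO1 cells, while the circle of MA-10 replicate 1 lies apart from replicates 2 and 3 for Bnip3, Birc5 and Mcl1.

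Birc3 had the largest fold change of the members tested. It encodes cIAP2, a ubiquitin ligase that sits on TNF receptor complexes with TRAF2 and is itself a textbook target of NF-kB. Its level was 2.52, 3.64 and 5.02 CPM in MA-10 replicates 1 to 3, from 42 to 57 counts, and 0.301, 0.236 and 0.281 CPM in the STARKO1 replicates, from 4 to 7 counts (chr9:7848699-7873186). Every STARKO1 library was below every MA-10 library, and the STARKO1 counts were only a little over the 3 counts taken as the lowest level that could be shown. Birc3 fell by 3.72 on the log2 scale (SE 0.390, adjusted p = 0.004995, edgeR's quasi-likelihood test), a 13.15-fold difference that rests on few counts in STARKO1 cells. The call was lost in 1 of the 6 fits that left out a library, that without STARKO1 replicate 1 (adjusted p = 0.051), and in none of 7 other alternatives that could be fitted.

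The neighbor and closest paralog of Birc3 was lower by much less and was not called. Birc2, the gene of cIAP1, lies on the same strand of chromosome 9 (chr9:7818227-7837064) and had 82.6, 88.4 and 95.8 CPM in MA-10 cells and 75.1, 75.0 and 79.9 CPM in STARKO1 cells (log2 fold change -0.21, SE 0.145, adjusted p = 0.3003, edgeR's quasi-likelihood test). The counts of Birc3 were not whole in 3 libraries, so some of its reads may have been divided with a similar gene. Xiap, the IAP protein that binds caspases directly, had 61.3, 79.5 and 75.5 CPM in MA-10 cells and 55.1 to 56.7 CPM in STARKO1 cells (log2 fold change -0.36, SE 0.159, adjusted p = 0.147). Birc5, the gene of survivin, which works mainly in cell division, had 66.0, 175 and 136 CPM in MA-10 cells and 52.0, 55.4 and 51.9 CPM in STARKO1 cells. MA-10 replicate 1 was much nearer to the STARKO1 libraries than the other MA-10 libraries were, and Birc5 did not pass the test (log2 fold change -1.24, SE 0.342, adjusted p = 0.0623, and 0.00846 by DESeq2). Birc6, a very large IAP protein, had 234, 115 and 177 CPM in MA-10 cells and 234 to 249 CPM in STARKO1 cells. Of the 5 IAP members, 4 had all STARKO1 libraries below the MA-10 libraries (80%, against 21% of all genes), and Birc3 alone was called.

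The death receptor side held the other lower members. Eda2r, the receptor for the A2 form of ectodysplasin and a known p53 target, had 3.21, 1.91 and 1.67 CPM in MA-10 replicates 1 to 3, from 56, 22 and 19 counts, and 0.344, 0.413 and 0.281 CPM in the STARKO1 replicates, from 8, 7 and 5 counts (chrX:97333840-97377216). The lines did not overlap, and MA-10 replicate 1 was the highest library. Eda2r fell by 2.70 on the log2 scale (SE 0.394, adjusted p = 0.0138, edgeR's quasi-likelihood test), a 6.51-fold difference. The call was lost when any 1 of the STARKO1 replicates was left out, with an adjusted p of up to 0.112, and with scaling by library size alone (0.08). Calls over all genes fell as well, from 1079 to 89, 135 and 93 without STARKO1 replicates 1, 2 and 3.

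Tnfrsf10b, the mouse receptor for the death ligand TRAIL, had 17.4, 16.1 and 17.7 CPM in MA-10 cells and 9.68, 10.8 and 10.7 CPM in STARKO1 cells (chr14:69767472-69784411). The spread within each line was small beside the difference between them, with means of 17.1 ± 0.834 and 10.4 ± 0.610 CPM (SD, n = 3 each). It fell by 0.72 on the log2 scale (SE 0.152, adjusted p = 0.0371, edgeR's quasi-likelihood test). This was the least firm of the called members named here. Its call was kept in 1 of the 6 fits that left out a library, that without MA-10 replicate 1 (adjusted p = 0.00383). That fit called 7990 of all genes, against 1079 with all libraries. For Tnfrsf10b, the highest adjusted p of the fits that left out a library was 0.216, without STARKO1 replicate 1. With the replicate number as a block it was 0.113, the call was also lost with upper quartile scaling and without a filter on low counts, and with scaling by library size alone the log2 fold change was -0.29 (adjusted p = 0.477).

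The other TNF receptors were not called by edgeR, and DESeq2 called Tnfrsf19 as lower (adjusted p = 0.0427). Tnfrsf1a, the main receptor of TNF, was the most abundant of the receptors per exon length and had 63.8, 48.2 and 42.4 CPM in MA-10 cells and 58.2 to 59.4 CPM in STARKO1 cells (log2 fold change 0.20, SE 0.189, adjusted p = 0.460, edgeR's quasi-likelihood test). Tnfrsf1b, the second TNF receptor, which lacks a death domain, had a log2 fold change of 0.13 (SE 0.275), and Tnfrsf12a, the receptor of TWEAK, had 0.09 (SE 0.189). Tnfrsf19 had 40.7, 19.9 and 27.0 CPM in MA-10 cells and 16.2 to 17.4 CPM in STARKO1 cells, without overlap (log2 fold change -0.81, SE 0.269, adjusted p = 0.0843). Tnfrsf14 and Tnfrsf23, a decoy receptor without a death domain, had all STARKO1 libraries above the MA-10 libraries, with log2 fold changes of 1.52 (SE 0.534, adjusted p = 0.0939) and 0.96 (SE 0.466, adjusted p = 0.174). Tnfrsf14 was scarce, at 0.0881 to 0.401 CPM in MA-10 cells and 0.602 to 1.06 CPM in STARKO1 cells. Tnfrsf17 and Tnfrsf8, receptors of the lymphoid lineage, were at 0.430 CPM or less in every library, with Tnfrsf8 at 0 counts in MA-10 replicate 3, were not tested, and overlapped between the lines.

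The TNF ligands matched by the selection came from 1 locus on chromosome 11. Tnfsf12 encodes TWEAK, Tnfsf13 encodes APRIL, and Tnfsfm13 is the annotated read-through of both, so their reads cannot be told apart with certainty, and their estimated counts were not whole in any library. Tnfsfm13 had 3.84, 2.95 and 2.03 CPM in MA-10 cells and 1.08, 1.47 and 0.506 CPM in STARKO1 cells (log2 fold change -1.53, SE 0.443, adjusted p = 0.0674, edgeR's quasi-likelihood test). Tnfsf13 had 1.95, 4.42 and 2.03 CPM against 2.58, 1.30 and 1.91 CPM, with overlap (log2 fold change -0.51, SE 0.432, adjusted p = 0.397). Tnfsf12 was counted 34, 12 and 6 times in MA-10 replicates 1 to 3 and 6, 3 and 5 times in STARKO1 replicates 1 to 3, and was below the limit for the test. By DESeq2, Tnfsfm13 was called (adjusted p = 0.0131).

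None of the 10 tested adaptors and kinases was called by edgeR or by DESeq2, and 1 of them, Traf2, had an unadjusted p under 0.05. Traf2, which binds both cIAP proteins and TNF receptor complexes, had 18.8, 14.6 and 13.5 CPM in MA-10 cells and 21.6, 22.6 and 23.03 CPM in STARKO1 cells (log2 fold change 0.52, SE 0.179, adjusted p = 0.0914, edgeR's quasi-likelihood test). Tradd, the first adaptor of TNF receptor 1, had 18.8 to 20.7 CPM in MA-10 cells and 22.6 to 24.0 CPM in STARKO1 cells, also without overlap, with a log2 fold change of 0.26 (SE 0.142, adjusted p = 0.214). Fadd, which links the receptors to caspase-8, had 8.36, 5.98 and 3.61 CPM in MA-10 cells and 8.65 to 9.25 CPM in STARKO1 cells (log2 fold change 0.58, SE 0.301, adjusted p = 0.197). Traf2, Tradd and Fadd were the only members of the group whose libraries separated, besides the untested Traf1. Ripk1, the kinase that steers TNF signaling between survival and death, had a log2 fold change of 0.23 (SE 0.175) and Cflar, the inhibitor of caspase-8 also called FLIP, had 0.05 (SE 0.152, adjusted p = 0.830). Cflar was level across the libraries, at 39.5 to 48.7 CPM in MA-10 cells and 43.0 to 47.6 CPM in STARKO1 cells. Ripk2 and the remaining TRAF genes, Traf3, Traf4, Traf6 and Traf7, had log2 fold changes between -0.51 and 0.37.

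Traf1, an adaptor that pairs with TRAF2 and is also a textbook target of NF-kB, was too scarce for the test. Its counts were 1, 2 and 1 in MA-10 replicates 1 to 3, under the floor of 3 counts, and 16, 6 and 10 in STARKO1 replicates 1 to 3. The mean of the STARKO1 libraries, 0.535 CPM, was 2.3-fold the mean of that floor over the MA-10 libraries. Birc3 and Traf1 lay on opposite sides, Birc3 lower and Traf1 with more counts in STARKO1 cells.

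Aifm3 was the called member among the apoptosome and mitochondrial factors. It encodes a relative of the apoptosis-inducing factor AIFM1 that is found in mitochondria. Its level was 1.43, 0.954 and 0.616 CPM in MA-10 replicates 1 to 3, from 25, 11 and 7 counts, and 4.52, 6.25 and 4.83 CPM in the STARKO1 replicates, from 105, 106 and 86 counts (chr16:17489611-17507485). The lines did not overlap, and MA-10 replicate 1 was the MA-10 library nearest to STARKO1. The log2 fold change was 2.33 (SE 0.346, adjusted p = 0.0145, edgeR's quasi-likelihood test), a 5.03-fold difference. It lost the call when MA-10 replicate 3 or any STARKO1 replicate was left out, with an adjusted p of up to 0.0918, and kept it in the 7 other alternatives that could be fitted. Calls over all genes also fell in those fits, to 181 without MA-10 replicate 3.

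The better known mitochondrial factors did not pass the test. Aifm1, the flavoprotein that supports the respiratory chain and can pass to the nucleus in cell death, was the most abundant of them per exon length and had 147, 197 and 195 CPM in MA-10 cells and 150, 140 and 144 CPM in STARKO1 cells (log2 fold change -0.31, SE 0.180, adjusted p = 0.237, edgeR's quasi-likelihood test). Apaf1, the scaffold of the apoptosome, had 13.8, 6.07 and 8.10 CPM in MA-10 cells and 8.02 to 10.7 CPM in STARKO1 cells (log2 fold change 0.04, SE 0.320). Diablo, the IAP antagonist also called SMAC, had 44.6, 84.8 and 47.3 CPM against 64.4 to 70.8 CPM (log2 fold change 0.20, SE 0.269), and the mitochondrial nuclease gene Endog had 7.13 to 9.02 CPM against 6.29 to 8.43 CPM. Aifm2, now also known as the ferroptosis suppressor FSP1, had 43.8 to 64.4 CPM in MA-10 cells and 65.9 to 73.4 CPM in STARKO1 cells, without overlap (log2 fold change 0.32, SE 0.190, adjusted p = 0.252).

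No member of the BCL2 family was called by edgeR. DESeq2 called 4 of them, Mcl1 as higher and Bbc3, Bik and Bnip3 as lower, and 5 had an unadjusted p under 0.05, these genes and Bcl2l11. Over all genes DESeq2 called 28.4%, and 37.6% had an unadjusted p under 0.05. Among the anti-apoptotic members, Mcl1, a short-lived guardian of the outer mitochondrial membrane, had 111, 55.2 and 52.4 CPM in MA-10 cells and 133, 134 and 127 CPM in STARKO1 cells. MA-10 replicate 1 was closer to the STARKO1 libraries than to MA-10 replicates 2 and 3, and the log2 fold change was 0.85 (SE 0.309, adjusted p = 0.100, edgeR's quasi-likelihood test). Bcl2l1, the gene of BCL-XL, had 41.8, 55.7 and 46.6 CPM in MA-10 cells and 35.8 to 40.2 CPM in STARKO1 cells (log2 fold change -0.34, SE 0.166, adjusted p = 0.178). Bcl2l2, the gene of BCL-W, had 19.9, 11.97 and 13.4 CPM against 10.7 to 11.8 CPM (log2 fold change -0.40, SE 0.227). All 3 anti-apoptotic genes separated the lines, Mcl1 with STARKO1 above and the other two with STARKO1 below, by less than the test required.

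The pore-forming effectors overlapped between the lines. Bax had 19.0, 41.8 and 30.0 CPM in MA-10 cells and 19.3, 20.5 and 22.6 CPM in STARKO1 cells, with MA-10 replicate 1 just below the STARKO1 range and the other two above it (log2 fold change -0.54, SE 0.288, adjusted p = 0.208, edgeR's quasi-likelihood test). Bak1 had 42.0, 70.9 and 60.1 CPM against 50.7 to 58.9 CPM (log2 fold change -0.05, SE 0.220), and Bok, an effector that needs no BH3-only trigger, had 8.65, 3.73 and 3.17 CPM against 4.56 to 6.72 CPM (log2 fold change 0.12, SE 0.407). Bak1 and Bok showed no direction that held across the alternatives.

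The BH3-only genes sense stress and start the mitochondrial route. The 5 matched by the selection had a median log2 fold change of -0.66, against -0.05 for all genes. For 3 of the 5 every STARKO1 library lay below every MA-10 library (60%, against 21% of all genes). Bmf, a BH3-only gene outside the selection, was called higher instead (log2 fold change 1.59, adjusted p = 0.0425, edgeR's quasi-likelihood test). Bbc3, the gene of the p53-induced protein PUMA, had 2.81, 5.204 and 4.40 CPM in MA-10 cells and 2.11, 1.95 and 1.57 CPM in STARKO1 cells (log2 fold change -1.13, SE 0.306, adjusted p = 0.0616, edgeR's quasi-likelihood test). Bik, which acts at the endoplasmic reticulum, had 10.5, 12.7 and 8.28 CPM against 6.54, 5.84 and 5.45 CPM (log2 fold change -0.82, SE 0.214, adjusted p = 0.0590). Bcl2l11, the gene of BIM, had 11.1, 9.54 and 10.5 CPM against 7.27 to 7.70 CPM (log2 fold change -0.48, SE 0.160, adjusted p = 0.0850). These differences were outside the range of the libraries and short of the threshold. Bad, the most abundant BH3-only gene per exon length and a target of survival kinases, had 21.7, 62.1 and 36.6 CPM in MA-10 cells and 23.7 to 26.9 CPM in STARKO1 cells (log2 fold change -0.66, SE 0.360). Bid, which caspase-8 cleaves to join the death receptor and mitochondrial routes, had 17.1 to 21.8 CPM against 18.5 to 21.3 CPM (log2 fold change 0.09, SE 0.166, adjusted p = 0.713).

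Among the BNIP genes, Bnip3 stood out for its level and for its spread. BNIP3 marks mitochondria for autophagy and is a textbook target of the hypoxia factor HIF-1. Bnip3 had 224, 1064 and 432 CPM in MA-10 replicates 1 to 3 and 171, 174 and 103 CPM in the STARKO1 replicates (chr7:138890836-138909519). The MA-10 libraries differed among themselves more than replicate 1 differed from STARKO1, and the log2 fold change of -1.94 (SE 0.572) did not pass the test (adjusted p = 0.0693, edgeR's quasi-likelihood test). The estimated counts of Bnip3 were not whole in any of the 6 libraries. Its relative Bnip3l, also called NIX, had 88.0 to 121 CPM in MA-10 cells and 84.3 to 119 CPM in STARKO1 cells (log2 fold change 0.04, SE 0.210), and Bnip2 had 42.4, 141 and 108 CPM against 50.6 to 52.4 CPM (log2 fold change -0.91, SE 0.402, adjusted p = 0.148). Bnip1, Bcl2l12 and Bcl2l13 had log2 fold changes between -0.55 and -0.04.

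Levels can be compared roughly between genes when divided by the length of their exons. The length used here counts every annotated exon of a gene, whichever transcript is expressed. In MA-10 cells the highest members were Bnip3 with 253 CPM per kilobase of exon, Aifm1 with 44.8 and Birc5 with 36.9. In STARKO1 cells Bnip3 was again the highest, with 65.8 CPM per kilobase, and Mcl1 with 38.4 lay just above Aifm1 with 36.1. The libraries of Bnip3 spread so widely that its place within an order is approximate. At the low end, Birc3 went from 0.744 to 0.0544 CPM per kilobase and Eda2r from 0.384 to 0.0587, the positions below the diagonal in the plot of levels per exon length.

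**Figure D3:**
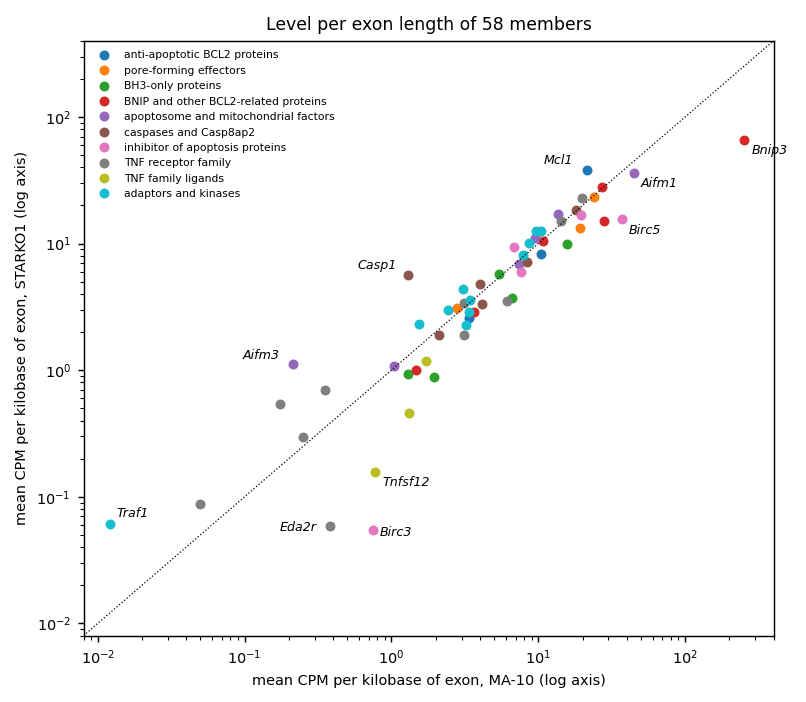
Mean level of 58 members in CPM per kilobase of exon, MA-10 cells on the horizontal and STARKO1 cells on the vertical axis (both log axes, 3 libraries each, colors for roles, dotted line for equal levels). Casp1 (1.29 against 5.66) and Aifm3 (0.214 against 1.11) lie above the line, Birc3, Eda2r and the untested Tnfsf12 far below it, and most other members on or near it.

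The number of members called depended on MA-10 replicate 1. The CPM of this replicate lay nearer to the STARKO1 mean than to the mean of MA-10 replicates 2 and 3 in 38 of the 56 tested members. The same share over all genes was not computed. Without MA-10 replicate 1, 21 members were called higher (37.5%, against 34% of all genes) and 17 lower (30.4%, against 31.7% of all genes). The 7 members called with all libraries were among them, and Mcl1 (log2 fold change 1.38, adjusted p = 3.03e-05, edgeR's quasi-likelihood test with 5 libraries), Birc5 (-1.46, adjusted p = 4.14e-05), Bnip3 (-2.23, adjusted p = 0.000817), Bnip2 (-1.17, adjusted p = 0.000106) and Traf2 (0.77, adjusted p = 0.000711) joined them. Against MA-10 replicate 1 alone the STARKO1 mean of Casp1 differed by 2.25 on the log2 scale and that of Tnfrsf10b by -0.75, while that of Mcl1 differed by 0.24 and that of Birc5 by -0.32.

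**Figure D4:**
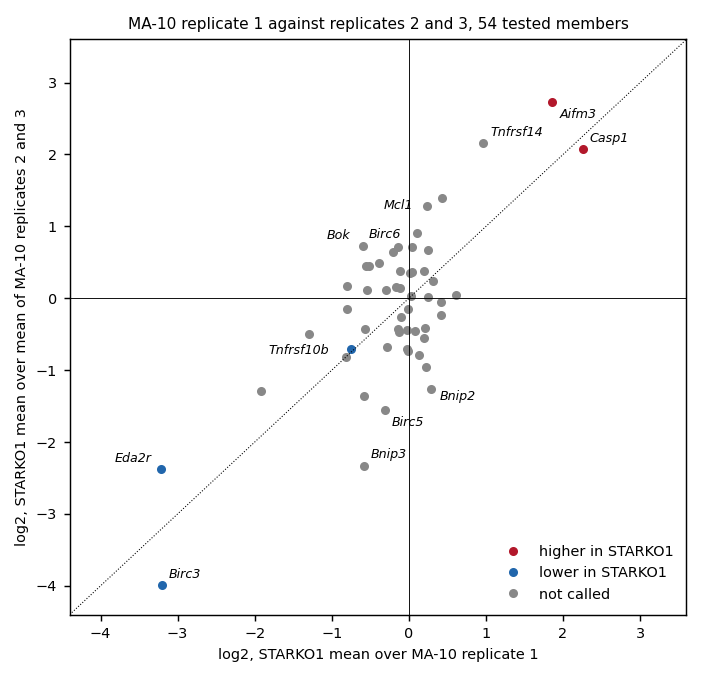
Log2 ratio of the STARKO1 mean to MA-10 replicate 1 (horizontal axis) and to the mean of MA-10 replicates 2 and 3 (vertical axis) for 54 tested members; the dotted line marks equal ratios. Of the called members (red and blue), Casp1 at 2.25 and 2.08 and Tnfrsf10b at -0.75 and -0.71 lie near the line, and Aifm3 (1.86 and 2.73), Birc3 (-3.21 and -3.99) and Eda2r (-3.21 and -2.37) farther from it, and of the members not called, Mcl1 (0.24 and 1.29), Birc5 (-0.32 and -1.55) and Bnip3 (-0.59 and -2.33) lie away from it as well.

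Gene length moved with these differences. Among the 3961 shortest genes (57 to 3017 bases of exon) the median log2 fold change was -0.24 over all genes and -0.30 over the 18 members among them, and among the 3961 longest (5613 bases and over) it was 0.03 over all genes and 0.00 over the 14 members. With offsets that take out the trend with length, the same 7 members were called. Casp1, a short gene of 1497 bases of exon, then had a log2 fold change of 2.43 and Birc3 had -3.77. Of the 60 members 16 overlap another annotated gene, among them Bid, Bcl2l13, Bax, Bak1, Casp8, Casp9 and the ligands, and none of the 7 called members does. Whether the counting used strand is not given in the sources used here, so the values of those 16 are less certain.

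Outside the 60 members, a list of 71 further genes of these routes was examined, of which 55 were tested. Bmf was higher, Trp53inp1 and Tnfaip8 were lower, and 52 were not called (1.82% higher and 3.64% lower, against 4.3% and 4.74% of all genes). Bmf, a BH3-only gene whose symbol lies outside the selection, had 2.18, 1.56 and 0.881 CPM in MA-10 cells and 5.72, 4.19 and 4.27 CPM in STARKO1 cells (log2 fold change 1.59, SE 0.355, adjusted p = 0.0425, edgeR's quasi-likelihood test). Tnfaip8, a target of NF-kB with an anti-apoptotic role, had 20.5, 23.7 and 29.1 CPM against 8.65, 8.43 and 9.38 CPM (log2 fold change -1.47, SE 0.187, adjusted p = 0.00851). Trp53inp1, a p53 target, had 9.91, 7.55 and 9.86 CPM against 3.36, 2.12 and 2.19 CPM (log2 fold change -1.82, SE 0.261, adjusted p = 0.0130). The lines did not overlap for any of these genes. Scaling by library size alone ended all 3 calls, with adjusted p of 0.0868 for Bmf, 0.0984 for Trp53inp1 and 0.0858 for Tnfaip8, and the replicate block ended that of Bmf (0.0726). Of the 6 fits that left out a library, Bmf was called in 1, that without MA-10 replicate 1, and its adjusted p rose to 0.176 without STARKO1 replicate 1. Trp53inp1 was lost without MA-10 replicate 3 or any STARKO1 replicate (up to 0.092), and Tnfaip8 without any STARKO1 replicate (up to 0.0908). Calls over all genes fell in the same fits. By edgeR, of the 12 tested genes of p53 and its targets Trp53inp1 was the one called, of 26 genes of death domains and NF-kB Tnfaip8 was, and of 7 genes of the mitochondrial steps Bmf was. DESeq2 called 4 of the 12, 5 of the 26 and 1 of the 7 genes of these lists, against 28.4% of all genes. Of the 12 genes of p53 and its targets, 6 had a positive and 6 a negative log2 fold change. All STARKO1 libraries lay above the MA-10 libraries for 3 of these 12 (25%, against 21.5% of all genes) and below them for 2 (16.7%, against 21%). Those 3 were Trp53, Sesn1 and Aen (log2 fold changes 0.95, 0.43 and 0.52), which DESeq2 called along with Trp53inp1. Of 10 caspase substrates and execution genes edgeR called none, with 4 at an unadjusted p under 0.05 (against 37.6% of all genes) and 4 called by DESeq2 (against 28.4%).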

How the data were processed

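RNA of 3 MA-10 and 3 STARKO1 libraries was compared. Total RNA libraries had been made with a stranded kit. The authors deposited estimated counts per gene and library, neither normalized nor pooled. The submitters' processing notes name STAR 2.6.1d, Partek and mm10; the test of the authors for these counts is not given in the sources used here. Every gene listed had at least 10 counts in total, and 54.2% of genes (36 members) had a value that was not whole. No value column was left without a sample (0 of the table).

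Counts were rounded, then fitted with edgeR 4.0.16 (R 4.3.3): filterByExpr, TMM scaling, glmQLFit and glmQLFTest over all 6 libraries without a replicate block, and Benjamini-Hochberg adjustment over 11939 genes, called at an adjusted p under 0.05. The SE is the size of the log2 fold change divided by the square root of F. Total counts per library were 14114351 to 19530062, and 3 counts, the floor, were 0.172 to 0.264 CPM in MA-10 and 0.129 to 0.177 CPM in STARKO1 libraries, which covers counting error only. The spread between libraries was larger (common biological coefficient of variation 0.291). The script was tested on simulated counts. Positions and exon lengths came from GENCODE M21 on GRCm38 (14677 genes matched by symbol and chromosome, 14634 with the same start), promoters from RefSeq.

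The members were selected by symbol, and this rule, the role groups and the marker and pathway lists were chosen with earlier results of these data known. Genes named are the called members, those not called with separated libraries, a log2 fold change of at least 1 in size and a mean of at least 1 CPM, a list of canonical members, the most abundant member of each role per exon length, and the called genes of the pathway list; the other members named complete their groups. Some members that the counts include are not reported here.

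Alternatives were DESeq2 1.42.0, RLE, upper quartile and library size scaling, no filter, at least 10 counts in every library, the replicate block, other thresholds (0.01, 2-fold) and leaving out each library. Offsets for gene length (lowess span 0.3) were added after seeing the data. Figures used Python 3.11.15 and matplotlib 3.10.9.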

Additional observations from a re-analysis of the deposited data

How the results depend on the processing

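Casp1 kept its call in all 14 alternatives run, and none of the 7 called members changed direction in any of those that could be fitted. Aifm3, Birc3 and Eda2r had no value with at least 10 counts in every library, since they did not pass that filter. The number of members called higher, 4, was 2 with scaling by library size alone, 2 with the replicate block, 1 at an adjusted p under 0.01, 2 at 2-fold or more and between 1 and 21 without 1 library. The number called lower, 3, was 9 with DESeq2, 1 with library size alone, 1 with at least 10 counts in every library, 1 at an adjusted p under 0.01 and between 0 and 17 without 1 library. Of all genes 1079 were called, and 3395 with DESeq2, 330 with library size alone, 695 with at least 10 counts, 234 with the replicate block, 179 at an adjusted p under 0.01 and between 89 and 7990 without 1 library. The highest counts are those without MA-10 replicate 1 and the lowest count over all genes that without STARKO1 replicate 1. With library size alone 210 genes were higher and 120 lower. That scaling raised the median log2 fold change of all genes by 0.43, and upper quartile scaling raised it by 0.15. The cause of the changes in these counts was not tested.

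Star kept its call in all alternatives. The replicate numbers did not pair the libraries: the deviations of same-numbered libraries had correlations of -0.02, 0.05 and 0.02, and not every library correlated best with its own number. With the replicate block Casp1, Aifm3, Birc3 and Eda2r were called (adjusted p 0.0273, 0.0489, 0.0229 and 0.0493).

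Some members that were not called changed sign. With library size alone the log2 fold change was 0.17 for Aifm1, 0.46 for Bak1, 0.00 for Bax, 0.14 for Bcl2l1, 0.24 for Birc2, 0.22 for Casp2, 0.21 for Casp6, 0.36 for Endog, 0.02 for Tnfsf13, 0.11 for Xiap, 0.34 for Bcl2l13, 0.26 for Casp8ap2, 0.17 for Bnip1, 0.09 for Traf3 and 0.01 for Ripk2. With upper quartile scaling it was 0.12 for Bak1, 0.09 for Bcl2l13 and 0.05 for Endog, without a filter 0.02 for Bak1 and 0.01 for Bcl2l13, with the replicate block 0.00 for Bcl2l13, and with length offsets 0.14 for Bak1, 0.18 for Endog and -0.01 for Cflar. Without 1 library it ranged from -0.19 to 0.54 for Apaf1, -0.14 to 0.13 for Bak1, -0.13 to 0.81 for Bok, -0.29 to 0.20 for Casp2, -0.04 to 0.11 for Casp8, -0.02 to 0.22 for Cflar, -0.21 to 0.01 for Endog, -0.26 to 0.19 for Bcl2l13, -0.07 to 0.24 for Bnip3l, -0.05 to 0.58 for Tnfrsf1b, -0.46 to 0.26 for Traf3 and -0.17 to 0.54 for Traf4.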
